A study of Mus musculus with 8 samples.

Results

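Extracellular vesicles (EVs) of T cells that had been pretreated with a DNase were compared with vehicle in cultured mouse pancreatic cancer cells. The comparison used 4 of the 8 RNA-seq libraries of the study: 2 of cells given DNase-pretreated ATEVs and 2 of cells given PBS. All genes that passed a filter on expression were examined, protein-coding genes first and pseudogenes apart. These were 15197 genes of 42687 in the table, of which 12738 were protein-coding, 1148 were pseudogenes, 1277 were other kinds of gene and 34 matched no gene of the annotation used for names.

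The cells were a clone of low immunogenicity from KPCY mice, whose alleles include Trp53LSL-R172H/+, Pdx1-Cre and Rosa26YFP/YFP, so all groups carried the mutant Trp53 allele although the genotype label reads WT. Pdx1-Cre drives recombination in the pancreatic epithelial lineage, and all cells came from 1 clone. The other EV groups were ATEVs without DNase and NTEVs, the EVs of non-activated T cells, so that ATEVs are read here as coming from T cells after activation. The dose was 15 µg/mL for ATEVs, both untreated and pretreated with Baseline-ZERO DNase, and 30 µg/mL for NTEVs. These doses are read here as holding 5 µg/mL of EV-DNA before any enzyme was added. Cells were harvested, reseeded and treated again over 8 rounds. No group that received the DNase alone was analysed here. Whether paired libraries of a group stem from different cultures is not stated in the labels. The p-values therefore reflect the spread between 2 libraries, part or all of which may be technical.

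EVs carry protein, RNA and DNA between cells. DNA that reaches the cytosol is detected by sensors such as cGAS, whose signal runs through STING to the factors IRF3 and NF-kB. IRF3 and the interferons it induces switch on interferon-stimulated genes, and NF-kB switches on chemokines and acute-phase genes. Interferon gamma, a product of activated T cells, induces the genes of antigen presentation on class I and class II molecules.

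Promoters of both kinds of target can carry short sequence elements, shown here because NF-kB target genes and interferon-stimulated genes make up many of the named rises below. Only windows that held a match are shown. The sequences are the 140 bases before the RefSeq transcription start in GRCm38.p6, written 5′ to 3′ on the strand of the gene, with the element in capitals. Cxcl1, Cxcl2 and Cxcl3 encode neutrophil-attracting chemokines, and the capitals mark the match to the NF-kB consensus. They lie at chr5:90891105-90891244, chr5:90903759-90903898 and chr5:90785961-90786100 on the plus strand. Ifit1 and Isg15 are interferon-stimulated genes, and the capitals mark the core of the interferon-stimulated response element (ISRE), searched on either strand as GAAA, any 2 bases and GAAA. Their windows are chr19:34640749-34640888 on the plus strand and chr4:156200819-156200958 on the minus strand.
Cxcl1: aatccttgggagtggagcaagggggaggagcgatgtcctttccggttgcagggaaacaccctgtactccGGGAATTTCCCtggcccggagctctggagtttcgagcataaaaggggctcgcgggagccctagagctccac
Cxcl2: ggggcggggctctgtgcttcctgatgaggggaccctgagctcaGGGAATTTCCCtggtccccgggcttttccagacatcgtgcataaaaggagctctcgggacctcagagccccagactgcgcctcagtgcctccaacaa
Cxcl3: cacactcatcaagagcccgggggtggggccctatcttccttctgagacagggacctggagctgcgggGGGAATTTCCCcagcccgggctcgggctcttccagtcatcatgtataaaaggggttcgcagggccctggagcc
Ifit1: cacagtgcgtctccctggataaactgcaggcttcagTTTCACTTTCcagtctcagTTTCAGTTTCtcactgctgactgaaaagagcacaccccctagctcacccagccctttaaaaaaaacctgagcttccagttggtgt
Isg15: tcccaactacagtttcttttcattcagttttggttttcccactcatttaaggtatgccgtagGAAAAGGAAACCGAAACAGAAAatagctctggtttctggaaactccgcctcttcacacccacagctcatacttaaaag
In windows from 250 bases before to 50 bases after the start, searched on both strands, 4.51% of 32851 RefSeq promoters held the NF-kB consensus and 3.44% held the ISRE core. Of the 11 NF-kB list members that rose, 7 had a RefSeq window, and 5 of these windows held the consensus (Ccl20, Csf1, Cxcl1, Cxcl2 and Cxcl3). Of the 15 type I interferon-stimulated genes that rose, 9 had a window, and 5 of these held the ISRE core (Ifit1, Isg15, Oas1a, Oas3 and Stat2). Over all tested members with a window, whether they rose or not, the consensus was in 10 of 24 for the NF-kB list and the ISRE core in 15 of 35 for the type I interferon list. Of the interferon gamma-induced genes 11 of 18 windows held the ISRE core, and 1 of 3 among those that rose. The NF-kB consensus reads the same site from both strands in the chemokine promoters, and the Isg15 matches overlap one another. A match is a string in this window and not evidence that a factor binds there.

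Against PBS, 458 genes passed an adjusted p of 0.05, which is 3.01% of those tested (edgeR, Benjamini-Hochberg over all genes). Of these, 328 were higher with DNase-treated ATEVs (2.16%) and 130 lower (0.855%), and 283 and 85 of them differed at least 2-fold. Among protein-coding genes 260 passed (2.04%), 196 higher (1.54%) and 64 lower (0.502%). Among pseudogenes 143 passed (12.5%), 79 higher (6.88%) and 64 lower (5.57%), all at least 2-fold. Among the other kinds of gene 54 passed (4.23%), 53 higher (4.15%) and 1 lower (0.0783%). The protein-coding rises were the larger changes: 151 of 196 reached 2-fold, against 19 of the 64 falls. Leaving out DNase-ATEV library 1 or 2 reduced the 458 calls to 68 and 57, and leaving out PBS library 1 or 2 reduced them to 20 and 11. In each of these fits all 458 genes kept their direction. In all 458 both libraries of one group lay above both of the other, so leaving out 1 library could hardly reverse a direction. The same separation held in 9202 genes (60.6% of those tested), so separation alone marks no gene out. Where groups are said below not to overlap or to be apart, this adds nothing to a call. In bulk RNA a change in the number of cells that express a gene cannot be told apart from a change in RNA per cell.

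Genes of secreted inflammatory proteins were among the largest rises. Values are counts-per-million of the counts in the table, after scaling between libraries (CPM). Lcn2, the siderophore-binding lipocalin 2, had 0.0583 and 0 CPM in the 2 PBS libraries and 61.7 and 40.3 CPM in the 2 DNase-ATEV libraries. The PBS libraries held 3 Lcn2 counts in all, and the ratio of the groups was 1439.6 with a 95% exact counting interval of 492 to 6984 (adjusted p = 0.00475, edgeR). Both Lcn2 libraries of cells given DNase-treated ATEVs stood far above all others, the ATEV libraries holding 2.64 and 8.49 CPM and the NTEV libraries 0.0391 and 0.0249 CPM. C3, the central complement protein, had 3.38 and 1.98 CPM with PBS and 172 and 271 CPM with DNase-treated ATEVs (log2 fold change 6.35 ± 1.07 SE, adjusted p = 0.0324, edgeR). Hp, the acute-phase haemoglobin scavenger haptoglobin, had 0.486 and 0.334 CPM with PBS and 5.98 and 9.23 CPM with DNase-treated ATEVs (4.18 ± 0.78 on the log2 scale, adjusted p = 0.0431). For both genes the groups did not overlap.

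**Figure D1:**
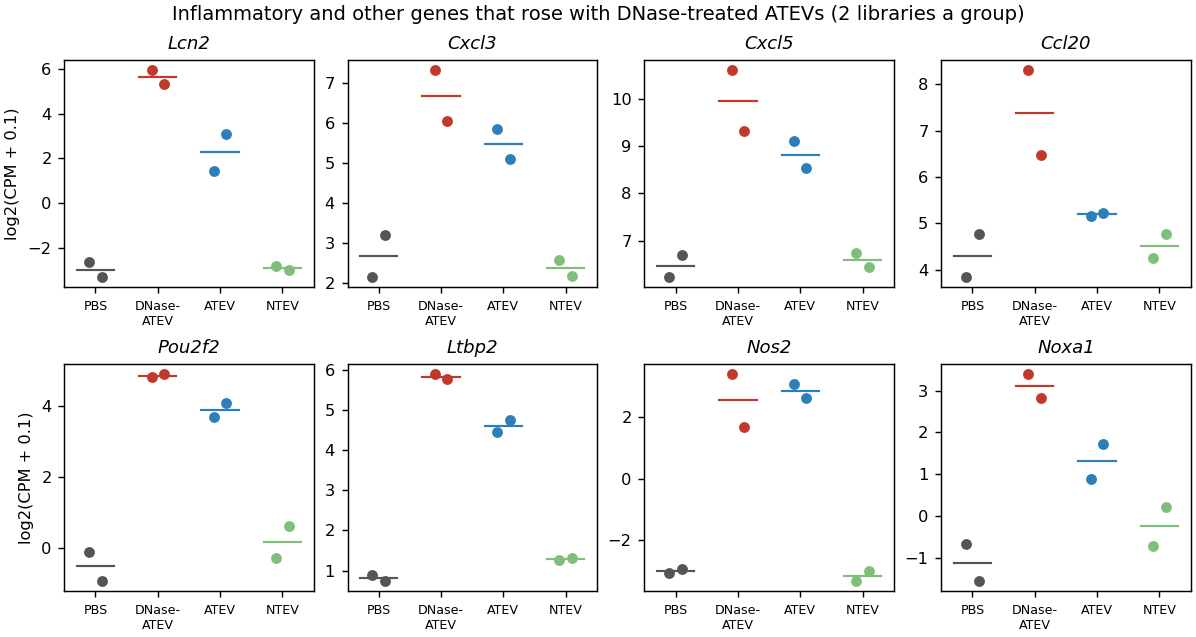
Expression of 8 genes that rose, as log2(CPM + 0.1), in each library (points) of the 4 groups, with the group mean as a line. The DNase-ATEV libraries lie above both PBS libraries in every panel. Lcn2, Pou2f2, Ltbp2 and Nos2 lie near the PBS level in the NTEV libraries and above it in the ATEV libraries, where Nos2 is near its DNase-ATEV level.

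The list of cytokines, chemokines and other NF-kB targets had 32 tested members, of which 11 rose and 0 fell (34.4%, against 3.01% of all genes), with a median log2 fold change of 0.907 beside 0 for all genes. Lcn2, described above, is a member, and several others are chemokines that attract neutrophils. Cxcl5 had 75.0 and 104 CPM with PBS and 1548 and 636 CPM with DNase-treated ATEVs, a 12.2-fold rise (adjusted p = 0.0171, edgeR). Cxcl3 had 4.35 and 9.03 CPM with PBS and 158 and 65.3 CPM with DNase-treated ATEVs, 16.8-fold (adjusted p = 0.021). For both chemokines DNase-ATEV library 1 held more than library 2, and both libraries lay above PBS. Nfkbiz, the nuclear NF-kB cofactor IκBζ, had 43.8 and 47.8 CPM with PBS and 213 and 253 CPM with DNase-treated ATEVs (5.08-fold, adjusted p = 0.00643). Csf1, the macrophage growth factor, had 53.9 and 54.8 CPM with PBS and 352 and 183 CPM with DNase-treated ATEVs (4.91-fold, adjusted p = 0.0171). The 2 groups were again apart in every library.

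The other members that rose are named here because they passed, a choice made after their values were seen. Cxcl1 and Cxcl2, whose promoters are shown above, rose 15.0-fold and 28.9-fold (adjusted p = 0.0308 and 0.0252, edgeR). Ccl2 and Ccl7, which attract monocytes, rose 15.4-fold and 21.8-fold (adjusted p = 0.0246 and 0.0229). Ccl20, a ligand of CCR6, had 14.3 and 27.1 CPM with PBS and 315 and 88.9 CPM with DNase-treated ATEVs (9.79-fold, adjusted p = 0.0409). Saa3, an acute-phase serum amyloid A, had 0 counts in both PBS libraries and 6.90 and 3.01 CPM with DNase-treated ATEVs, at least 140.1-fold higher with PBS set to 3 counts over the pair (adjusted p = 0.0212). Tnf did not pass, nor did the NF-kB subunit genes Rela (log2 fold change -0.02), Nfkb1 (0.36) and Nfkb2 (0.24), all chosen after their values were seen. In 10 of the 11 genes that rose, DNase-ATEV library 1 was the higher of the pair. The 11 calls became 4 and 6 without DNase-ATEV library 1 or 2, and 0 and 1 without PBS library 1 or 2. With protein-coding genes fitted alone there were 4.

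Markers of blood cells were examined beside these genes. Cd14, a lipopolysaccharide coreceptor that macrophages and some epithelia express, had 99.7 and 67.1 CPM with PBS and 270.0 and 195 CPM with DNase-treated ATEVs (log2 fold change 1.48 ± 0.24 SE, adjusted p = 0.0284, edgeR). It was the member that passed among 3 tested of 7 myeloid and B cell markers, whose summed level, computed from library totals without the scaling between libraries, was 66.6 to 101 CPM with PBS and 210 to 280 CPM with DNase-treated ATEVs. On that scale Cd14 itself had 97.8 and 64.2 CPM with PBS and 276 and 204 CPM with DNase-treated ATEVs. Ptprc (CD45), which all white blood cells express, had 13 and 7 counts in the PBS libraries and 5 and 6 in the DNase-ATEV libraries. Cd14 lost its call without any 1 of the 4 libraries. T cell markers summed to 10.8 and 11.3 CPM with PBS and 11.8 and 9.17 CPM with DNase-treated ATEVs. Nearly all of this came from Trac and Lck, while Cd2 and Cd8a were at 0. Trac had 6.33 and 6.86 CPM with PBS and 5.23 and 5.59 CPM with DNase-treated ATEVs. Lck had 3.81 and 4.07 CPM with PBS and 6.27 and 3.24 CPM with DNase-treated ATEVs, and neither gene passed. The part of these markers in the results was not tested.

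Several genes of host defence and oxidant production rose from very low levels. Nos2, the inducible nitric oxide synthase, had 0.0194 and 0.0304 CPM with PBS, 2 counts in all, and 10.6 and 3.14 CPM with DNase-treated ATEVs, a 291-fold ratio (95% counting interval 80.3 to 2413, edgeR adjusted p = 0.0138). Cybb, the catalytic subunit of the phagocyte NADPH oxidase, had 1.11 and 0.729 CPM with PBS and 29.4 and 19.3 CPM with DNase-treated ATEVs (26.0-fold, adjusted p = 0.00754). Noxa1, an activator subunit of epithelial NADPH oxidase, had 0.524 and 0.243 CPM with PBS and 10.4 and 6.92 CPM with DNase-treated ATEVs (21.7-fold, adjusted p = 0.0188). None of these 3 genes overlapped between the groups. Vnn3, a vanin of the pantetheinase family, rose 42.5-fold, from 0.486 and 0.395 CPM to 20.1 and 17.9 CPM (adjusted p = 0.00357). Clca3b, a member of the calcium-activated chloride channel regulator family, rose 34.3-fold, from 0.952 and 2.40 CPM to 70.8 and 41.7 CPM (adjusted p = 0.00702).

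The matrix protein gene Ltbp2 and the transcription factor genes Pou2f2 and Ehf rose with little spread between libraries. Ltbp2, a latent TGF-beta binding protein of elastic fibres, had 1.75 and 1.58 CPM with PBS and 59.8 and 54.4 CPM with DNase-treated ATEVs. Its log2 fold change was 5.09 ± 0.19 SE (34.1-fold, adjusted p = 0.000301, edgeR). Pou2f2, the octamer factor OCT2 best known from B cells, had 0.816 and 0.425 CPM with PBS and 28.1 and 30.0 CPM with DNase-treated ATEVs (45.4-fold, adjusted p = 0.00357). Ehf, an ETS factor of epithelial cells, had 4.39 and 3.46 CPM with PBS and 29.5 and 39.3 CPM with DNase-treated ATEVs (8.73-fold, adjusted p = 0.00357). Of the 15 largest rises, 9 still passed without DNase-ATEV library 1, 9 without DNase-ATEV library 2, 2 without PBS library 1 (Ltbp2 and Pou2f2) and 2 without PBS library 2 (Ltbp2 and Clca3b).

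A second large group of rises was that of type I interferon-stimulated genes. Of 46 tested members 15 rose and 0 fell (32.6%, against 3.01% of all genes), 44 had a positive log2 fold change, and the median was 1.69. Oasl2, a member of the oligoadenylate synthetase-like family, had 2.29 and 1.82 CPM with PBS and 22.4 and 37.6 CPM with DNase-treated ATEVs (14.4-fold, adjusted p = 0.00702, edgeR). Rtp4, a chaperone of membrane receptors, had 1.26 and 1.43 CPM with PBS and 15.4 and 29.9 CPM with DNase-treated ATEVs (16.9-fold, adjusted p = 0.0123). Ifit1, which binds viral RNA that lacks self cap marks, had 0.466 and 0.274 CPM with PBS and 6.92 and 8.61 CPM with DNase-treated ATEVs (20.3-fold, adjusted p = 0.021). Isg15, a ubiquitin-like modifier, had 0.835 and 0.821 CPM with PBS and 8.96 and 9.61 CPM with DNase-treated ATEVs (11.2-fold, adjusted p = 0.021). As in every gene called, the groups did not overlap for these 4 genes. Oas2, which makes the second messenger that activates RNase L, had the largest fold of the list, from 0.0971 and 0.274 CPM to 5.62 and 18.1 CPM (68.2-fold, adjusted p = 0.0275).

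The remaining members that passed, named after their values were seen, were Usp18 (11.7-fold), Oas3 (11.8-fold), Zbp1 (11.4-fold), Oas1a (8.43-fold), Irf7 (7.80-fold), Dhx58 (6.95-fold), Xaf1 (5.13-fold), Parp14 (4.14-fold), Stat2 (3.11-fold) and Adar (1.72-fold). Their adjusted p-values lay between 0.0246 for Usp18 and 0.0498 for Stat2 (edgeR). All 15 called genes were higher in DNase-ATEV library 2 than in library 1, as were 43 of the 46 tested. The chemokine list leaned to library 1 and this list to library 2, so the lists ranked the 2 DNase-ATEV libraries in opposite order. In the NTEV pair, too, library 2 was the higher for all 15 called genes and for 42 of the 46 tested. Of the 11 calls in the chemokine list, NTEV library 1 was the higher in 5 and NTEV library 2 in 6. What lies behind these splits was not tested. The 15 calls became 4 and 2 without DNase-ATEV library 1 or 2, and 0 without either PBS library. With protein-coding genes fitted alone 2 passed, and DESeq2 called 32.

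**Figure D2:**
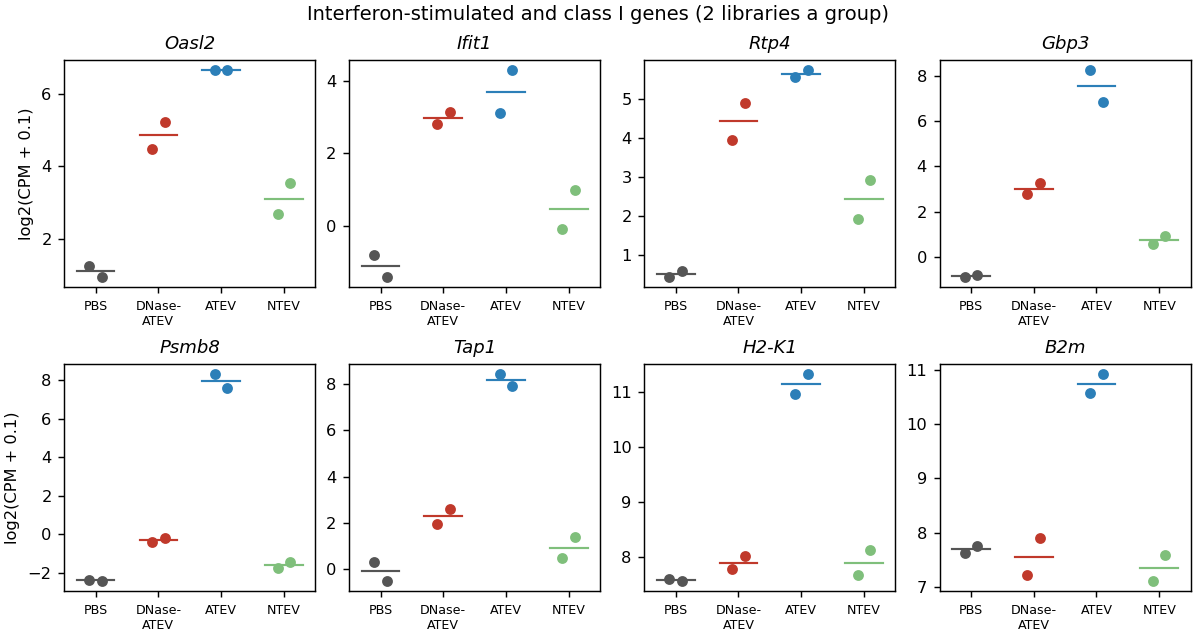
Expression of 4 interferon-induced genes (top) and 4 genes of class I antigen presentation (bottom), as log2(CPM + 0.1), in each library (points) of the 4 groups, with the group mean as a line. Oasl2, Ifit1, Rtp4 and Gbp3 lie above PBS in the DNase-ATEV libraries, while H2-K1 and B2m stay near the PBS level there and are higher in the ATEV libraries. The means of the 4 top genes are also higher with ATEVs than with DNase-treated ATEVs, and higher with NTEVs than with PBS.

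Genes induced by interferon gamma changed in part. Of 29 tested members 5 rose and 0 fell (17.2%, against 3.01% of all genes), with a median log2 fold change of 1.42. Besides Nos2 these were Gbp3 (17.5-fold), a guanylate-binding GTPase, Gbp6 (9.15-fold), a member of the same family, and the inflammatory caspases Casp1 (5.87-fold) and Casp4 (2.45-fold). Gbp3 had 0.447 and 0.486 CPM with PBS and 6.70 and 9.63 CPM with DNase-treated ATEVs (adjusted p = 0.0188, edgeR). Casp4, a sensor of cytosolic lipopolysaccharide, had 19.9 and 25.6 CPM with PBS and 48.5 and 62.9 CPM with DNase-treated ATEVs (adjusted p = 0.0254). Casp1 had 0.175 and 0.122 CPM with PBS and 0.992 and 0.821 CPM with DNase-treated ATEVs (adjusted p = 0.0182). Gbp6 is named although its values were seen first (adjusted p = 0.0465). The 5 calls became 1 and 1 without DNase-ATEV library 1 or 2 and 0 without either PBS library, and DESeq2 called 14.

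Few genes of class I antigen presentation passed: 2 of 24 tested members rose and 0 fell (8.33%, against 3.01% of all genes, median log2 fold change 0.383). The heavy chain gene H2-K1 had 195 and 190.4 CPM with PBS and 219.9 and 260.0 CPM with DNase-treated ATEVs, a log2 fold change of 0.31 ± 0.20 SE (adjusted p = 0.359, edgeR). For H2-D1 the values were 251 and 283 CPM against 275 and 309 CPM (0.13 ± 0.17 on the log2 scale, adjusted p = 0.656). B2m, the invariant light chain, had 198 and 216 CPM with PBS and 149 and 238 CPM with DNase-treated ATEVs (-0.10 ± 0.26, adjusted p = 0.837). The groups overlapped for H2-D1 and B2m. Members that rose were Psmb8, an immunoproteasome subunit, from 0.0971 and 0.0912 CPM to 0.653 and 0.772 CPM (7.32-fold, adjusted p = 0.0284), and Tap1, a subunit of the peptide transporter, from 1.15 and 0.608 CPM to 3.80 and 5.999 CPM (5.40-fold, adjusted p = 0.038). H2-Q4 (4.73-fold, adjusted p = 0.0507), Psmb9 (3.96-fold, adjusted p = 0.0834) and Nlrc5, the class I transactivator (5.36-fold, adjusted p = 0.165), did not pass. H2-Q genes are near-identical copies of one another, so their counts are uncertain. Psmb8 and Tap1 lost their calls without any 1 of the 4 libraries. H2-Q4 passed without DNase-ATEV library 1, and in the other 3 fits 0 members passed.

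None of the 9 tested genes of class II antigen presentation passed against PBS with edgeR, and 1 had an unadjusted p below 0.05. Over all genes, 3749 of 15197 had such a p. DESeq2 called 1. Cd74, the class II invariant chain, held 3 counts over the 2 PBS libraries and 7 over the 2 DNase-ATEV libraries, a 2.42-fold ratio (95% counting interval 0.552 to 14.5). Ciita, the class II transactivator, had 2 counts with PBS and 0 with DNase-treated ATEVs. Both genes passed the filter on expression through the ATEV libraries alone and held almost no counts in either group compared here.

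Sensors of nucleic acid were examined because the pretreatment acts on DNA. In the list of cytosolic DNA sensing and DNA clearance, 3 of 25 tested members rose and 0 fell (12.0%, against 3.01% of all genes). Mndal and Ifi203, of the interferon-inducible PYHIN family, rose 9.91-fold and 6.87-fold (adjusted p = 0.0192 and 0.0324, edgeR), and Zbp1, a sensor of Z-form nucleic acid, rose 11.4-fold (adjusted p = 0.0411). Mndal had 1.73 and 1.03 CPM with PBS and 9.34 and 18.5 CPM with DNase-treated ATEVs. PYHIN genes lie in a cluster of close relatives, so their counts are uncertain. Of 12 RNA sensing genes 3 rose and 0 fell (25%, against 3.01% of all genes). These were Dhx58 (LGP2), Adar, the RNA-editing enzyme, and Ddx58 (RIG-I). Ddx58 had 18.4 and 15.7 CPM with PBS and 33.9 and 40.5 CPM with DNase-treated ATEVs (2.18-fold, adjusted p = 0.0487). Ifih1 (MDA5), at 1.64-fold, did not pass (adjusted p = 0.113). Among 18 interferon receptors and signal transducers 1 passed (5.56%, against 3.01% of all genes). Stat2 rose, from 24.7 and 21.0 CPM to 51.0 and 91.0 CPM (3.11-fold, adjusted p = 0.0498, edgeR). Irf9, its partner, had 2.49-fold (adjusted p = 0.0645) and Ifnar2 1.76-fold (adjusted p = 0.0541). Stat2 lost its call under relative log expression (RLE) scaling. With 1 library left out, 1 DNA sensing member passed without DNase-ATEV library 1, and no member of these 3 lists passed in the other fits.

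In the list of checkpoint molecules and immune cell ligands 2 genes rose and 1 fell among 21 tested (14.3%, against 3.01% of all genes). Fas, the death receptor, had 0.311 and 0.547 CPM with PBS and 3.75 and 4.41 CPM with DNase-treated ATEVs (9.69-fold, adjusted p = 0.0188, edgeR). Cd47, which inhibits phagocytosis, had 159.5 and 154 CPM with PBS and 252 and 238 CPM with DNase-treated ATEVs (1.57-fold, adjusted p = 0.0403). H60b, a ligand of the activating receptor NKG2D, fell from 1.52 and 2.04 CPM to 0.363 and 0.274 CPM, 5.51-fold lower (adjusted p = 0.027). Each group of libraries was apart for these 3 genes. Cd274 (PD-L1) had 18.5 and 17.7 CPM with PBS and 29.9 and 60.5 CPM with DNase-treated ATEVs, and this 2.50-fold difference did not pass (adjusted p = 0.118). Without any 1 library 0 members of the list passed.

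Fewer protein-coding genes fell, and most falls were smaller than 2-fold. The larger ones included that of Lars2, the mitochondrial leucyl-tRNA synthetase, with 879 and 1000.3 CPM in the PBS libraries and 158 and 157 CPM in the DNase-ATEV libraries. Its log2 fold change was -2.58 ± 0.16 SE (5.97-fold lower, adjusted p = 0.0017, edgeR). The 2 DNase-ATEV libraries were nearly equal, and the ATEV (159 and 186 CPM) and NTEV (171 and 207 CPM) libraries lay close to them. Gm15564, a locus known for ribosomal RNA-like sequence that was picked with its values already seen, also fell, from 21.6 and 28.1 CPM to 2.57 and 3.09 CPM (adjusted p = 0.00506), and whether reads of ribosomal RNA are counted at Lars2 was not tested. None of the other members among 17 tested mitochondrial tRNA synthetases passed, and the next smallest p in that list was that of Iars2 (log2 fold change -0.51 ± 0.18 SE, adjusted p = 0.149).

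Further falls were of genes with varied roles. Vamp7, a SNARE of late endosomes and lysosomes, fell from 111 and 114 CPM to 47.7 and 42.9 CPM (2.48-fold lower, adjusted p = 0.00621, edgeR). Lypla1, an enzyme that removes palmitate from proteins, fell from 79.4 and 85.4 CPM to 26.3 and 32.9 CPM (2.79-fold lower, adjusted p = 0.014). Ap1s2, a clathrin adaptor subunit, fell 2.46-fold and Rap2c, a RAS-related GTPase, 1.96-fold (adjusted p = 0.037 and 0.0182). Cav1, the main caveolar protein, fell from 248 and 268 CPM to 146 and 108 CPM (2.03-fold lower, adjusted p = 0.0448, edgeR). It was the 1 of 18 caveolae and clathrin coat genes to pass (5.56%, against 3.01% of all genes). Fli1, an ETS factor, fell from 3.26 and 3.40 CPM to 0.629 and 0.348 CPM (6.77-fold lower, adjusted p = 0.0239). Its mean was 3.14 CPM with NTEVs and 1.65 CPM with ATEVs, and neither direct difference from DNase-treated ATEVs passed (adjusted p = 0.134 and 0.166, edgeR). Both DNase-ATEV libraries were below both PBS libraries for all of these genes. Apart from Fli1, means with ATEVs and NTEVs were 48.7 and 49.0 CPM for Vamp7 and 26.5 and 28.7 CPM for Lypla1. They were 9.07 and 8.1 CPM for Ap1s2, 30.4 and 35.8 CPM for Rap2c and 129 and 145 CPM for Cav1. With DNase-treated ATEVs the means of these genes were 45.3, 29.6, 8.90, 31.4 and 127 CPM in this order. Like Fli1, they did not pass directly against ATEVs or NTEVs (edgeR).

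**Figure D3:**
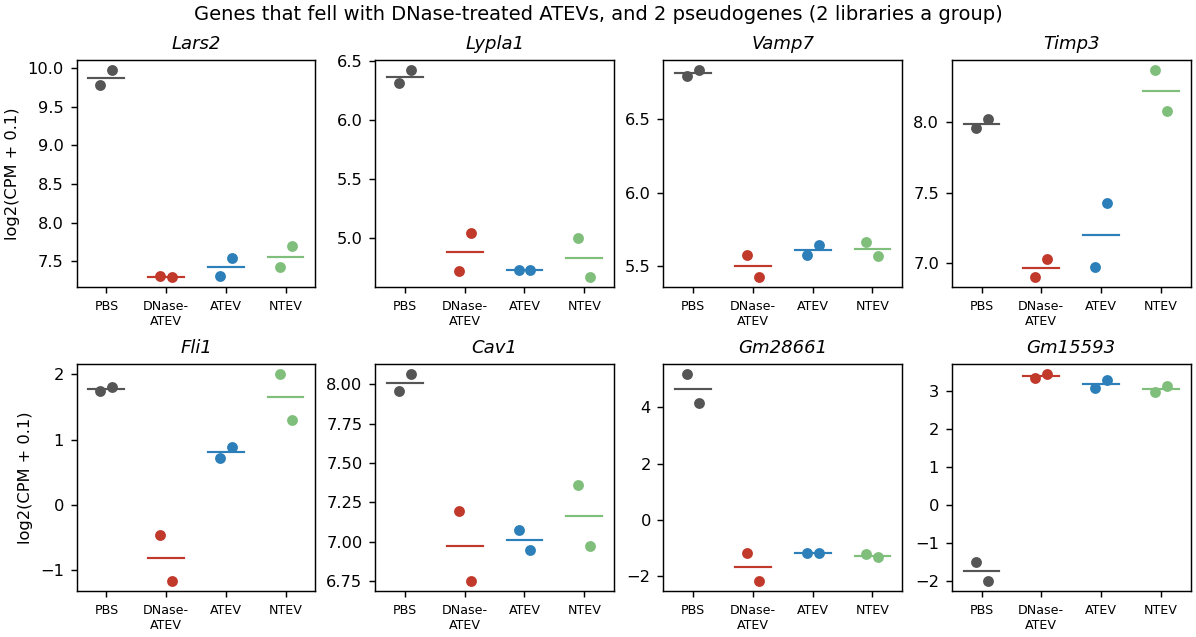
Expression of 6 protein-coding genes that fell and of 2 pseudogenes, 1 that fell (Gm28661) and 1 that rose (Gm15593), as log2(CPM + 0.1), in each library (points) of the 4 groups, with the group mean as a line. Lars2, Lypla1, Vamp7 and both pseudogenes lie at similar levels in the 3 EV groups, whereas in the NTEV libraries Timp3 lies above and Fli1 near the PBS level.

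The rest of the 15 largest falls were smaller or less even. Serpinb9b, a serpin, fell from 20.8 and 48.2 CPM to 7.87 and 7.17 CPM (4.58-fold lower, adjusted p = 0.0337, edgeR), with the PBS libraries far apart. Sema5a, an axon guidance semaphorin, was 2.37-fold lower (adjusted p = 0.0485), Vbp1, a subunit of the prefoldin chaperone, 2.17-fold (0.0498), Tmem64, a membrane protein, 2.05-fold (0.0498), Naa30, a catalytic subunit of an amino-terminal acetyltransferase, 2.03-fold (0.0381) and Cd53, a tetraspanin, 2.02-fold (0.0353). Timp3 is described with the matrix genes. Of the 15 falls, 2 still passed without DNase-ATEV library 1 (Lars2 and Vamp7), 2 without DNase-ATEV library 2 (Lars2 and Lypla1), 2 without PBS library 1 (Lars2 and Serpinb9b) and 1 without PBS library 2 (Lars2).

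Matrix genes did not move as a block. In the lists of basement membrane, of fibrillar matrix and of proteases 10%, 6.25% and 4.35% passed, against 3.01% of all genes. Not every member that passed is named here. Of 20 basement membrane genes, Lama5, the laminin alpha-5 chain, rose from 500.6 and 425 CPM to 1085 and 1247 CPM (2.52-fold, adjusted p = 0.0444, edgeR). Of 16 genes of fibrillar and interstitial matrix, Col5a1 (collagen V) rose 3.44-fold, from 4.08 and 3.04 CPM to 11.1 and 13.5 CPM (adjusted p = 0.0214). Of 23 matrix proteases and inhibitors, Timp3, an inhibitor of metalloproteinases, fell from 248 and 259.7 CPM to 119 and 130.4 CPM (2.03-fold lower, adjusted p = 0.0381). Adam10, a sheddase, was 1.52-fold lower and did not pass (adjusted p = 0.0505). Fn1, fibronectin, had 704 and 286 CPM with PBS and 866 and 894 CPM with DNase-treated ATEVs, with the PBS libraries far apart (adjusted p = 0.365). Lama5 did not pass with an offset for transcript length and GC content or with upper quartile scaling, and Timp3 did not with the latter. Without any 1 library no member of these 3 lists passed.

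Genes of cell identity mostly did not pass. Of 34 epithelial and duct genes Ehf alone passed (2.94%, against 3.01% of all genes). Pdx1, the pancreatic master regulator, had 57.7 and 51.2 CPM with PBS and 95.2 and 77.4 CPM with DNase-treated ATEVs (1.58-fold, adjusted p = 0.066, edgeR). None of 23 mesenchymal genes passed with edgeR, with 7 at an unadjusted p below 0.05 and 2 called by DESeq2. Of 21 Notch pathway genes 1 passed (4.76%). The receptor Notch1 rose, from 63.3 and 49.6 CPM to 123 and 126 CPM (2.204-fold, adjusted p = 0.027, edgeR). With an offset for transcript length and GC content, Notch1 had an adjusted p of 0.0706. None of 20 YAP and TEAD targets passed with edgeR, with 4 at an unadjusted p below 0.05 and 1 called by DESeq2. Over all genes, 3749 of 15197 had an unadjusted p below 0.05. Notch1 lost its call without any 1 of the 4 libraries, and Ehf without PBS library 2.

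Giant genes and cytoskeletal linkers gave 5 rises and 0 falls among 43 tested (11.6%, against 3.01% of all genes, median log2 fold change 0.34). The chromatin regulators Kmt2d and Kmt2a rose 2.36-fold and 1.68-fold (adjusted p = 0.0212 and 0.0254, edgeR), Dync1h1, the dynein heavy chain, 1.88-fold (0.0259) and Dst, a spectraplakin, 1.82-fold (0.0333). Syne2, a nuclear envelope linker, also rose (1.67-fold, adjusted p = 0.0362) and is named after its value was seen. Kmt2d had 48.1 and 64.2 CPM with PBS and 132 and 133 CPM with DNase-treated ATEVs. With the offset for length and GC content 0 of the 43 passed, and 0 passed without any 1 library.

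Early response genes had shifted values that did not pass in the main fit. Of 26 immediate early and ERK feedback genes 0 passed with edgeR and 9 with DESeq2. At an unadjusted p below 0.05, 16 of them were higher and 1 was lower, beside 13.7% and 10.9% of all genes, and the median log2 fold change was 0.911. Jund, an AP-1 subunit, had 121 and 131 CPM with PBS and 277 and 445 CPM with DNase-treated ATEVs (2.86-fold, adjusted p = 0.0772, edgeR). Spry2 and Spry1, feedback inhibitors of receptor tyrosine kinase signalling, had 1.58-fold and 1.46-fold (adjusted p = 0.0712 and 0.0772). Egr1, chosen after its value was seen, had a log2 fold change of 3.65 with an unadjusted p of 0.011. With a replicate block edgeR called 16 of the 26, with no filter on low counts 15, and with the 2 groups fitted alone 3. In 19 of the 26 genes DNase-ATEV library 2 was the higher of the pair, and in 20 NTEV library 2 was the higher of its pair.

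Stress and death genes gave few calls. Of 24 p53 targets 2 rose (8.33%, against 3.01% of all genes). Fas rose, as above, and so did Bbc3 (PUMA), from 8.86 and 8.84 CPM to 20.6 and 19.0 CPM (2.24-fold, adjusted p = 0.0301, edgeR). Of 22 heat shock chaperones 2 passed (9.09%). The inducible Hspa1b rose 2.13-fold and Hspa1a 2.24-fold (adjusted p = 0.0436 and 0.0498, edgeR). These are near-identical copies, so their separate values are uncertain. The list's median was -0.445, and 9 members, Chordc1 and Hspa4 among them (1.69-fold and 1.62-fold lower, adjusted p = 0.121 for both), were lower at an unadjusted p below 0.05. Of all genes 10.9% were lower at that threshold. With the offset for length and GC content Bbc3, Hspa1a and Hspa1b did not pass. None of 26 ATF4 and unfolded protein response genes passed with edgeR, with 5 at an unadjusted p below 0.05 and 1 called by DESeq2. Over all genes, 3749 of 15197 reached that unadjusted threshold. Without any 1 library no member of these 3 lists passed.

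Cell cycle genes had mostly negative log2 fold changes, and 0 passed with edgeR. All 30 genes of G2 and mitosis had a negative log2 fold change (median -0.606), with 0 called by edgeR or DESeq2 and 3 lower at an unadjusted p below 0.05. Of 35 genes of DNA replication and S phase 34 were negative (median -0.621), with 0 called by edgeR or DESeq2 and 3 lower at an unadjusted p below 0.05. Of all 15197 genes tested 7594 were negative, and 10.9% were lower at that unadjusted threshold. Ccna2, cyclin A2, had 343 and 425 CPM with PBS and 207 and 164 CPM with DNase-treated ATEVs (2.07-fold lower, adjusted p = 0.182, edgeR). Mcm6, a subunit of the replicative helicase, had 274 and 308 CPM with PBS and 202 and 126 CPM with DNase-treated ATEVs (1.78-fold lower, adjusted p = 0.179). With no filter on low counts edgeR called 2 of the mitosis genes and 3 of the replication genes, and with the 2 groups fitted alone 2 of the mitosis genes. In all 35 replication genes, and in 29 of the 30 of mitosis, DNase-ATEV library 2 was the lower of the pair. NTEV library 2 was the higher of its pair in 0 genes of either list.

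Metabolic and housekeeping lists held 1 call besides Lars2. Rps29, a protein of the small ribosomal subunit, fell from 277 and 295 CPM to 175 and 138 CPM (1.82-fold lower, adjusted p = 0.0326, edgeR). It was the 1 of 80 ribosomal proteins to pass (1.25%, against 3.01% of all genes). Its call was lost without any 1 library. None of 29 glycolysis and hypoxia genes passed with edgeR, with a median of 0.609, 5 at an unadjusted p below 0.05 and 1 called by DESeq2. There Vegfa, the angiogenic factor, had 2.74-fold (adjusted p = 0.0932) and Gapdh was 1.49-fold lower (adjusted p = 0.0996). Nor did edgeR call any of 25 cholesterol genes (8 at an unadjusted p below 0.05, 3 called by DESeq2), of 74 respiratory chain subunits (13 and 3) or of 32 lysosome and autophagy genes (5 and 0). Over all genes, 3749 of 15197 had an unadjusted p below 0.05, so these counts alone mark out none of these lists.

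**Figure D4:**
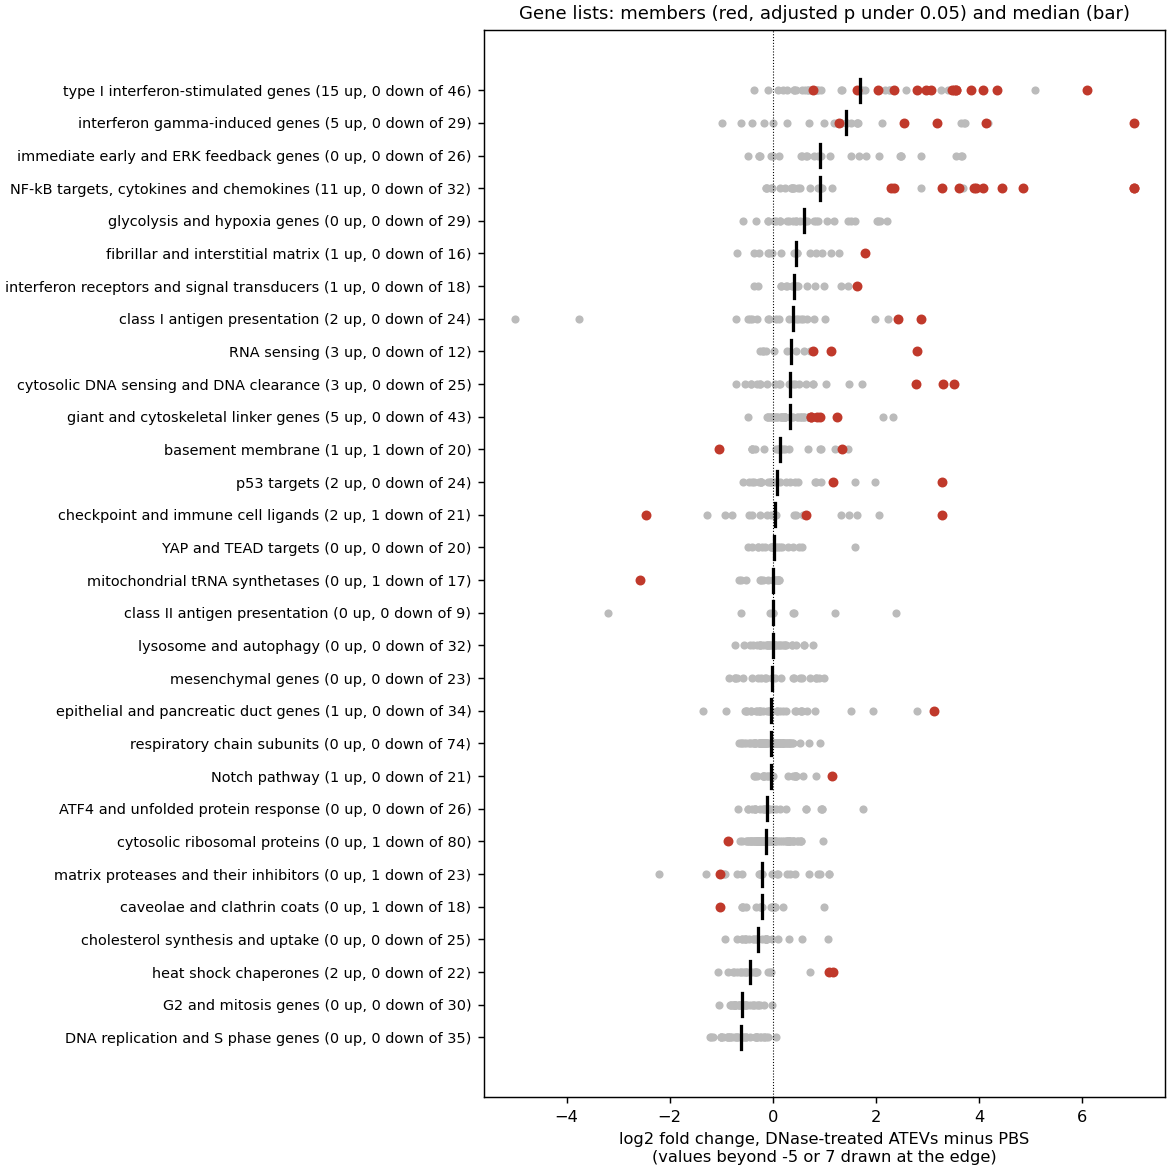
Log2 fold change of DNase-treated ATEVs minus PBS for the tested members (points) of 30 gene lists, with members of adjusted p under 0.05 in red and the list median as a bar. Red points are most numerous among type I interferon-stimulated genes (15 of 46) and NF-kB targets (11 of 32), while the cell cycle lists lie below 0 with no red point.

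Pseudogenes and other non-coding genes are given apart. Reads of a pseudogene and of its parent gene can be exchanged by the mapping, and how the counting treated such reads is not given in the sources used here, so these values are uncertain. Gm15593, a processed pseudogene, had 0.253 and 0.152 CPM with PBS and 10.0 and 10.7 CPM with DNase-treated ATEVs (48.8-fold, adjusted p = 0.0011, edgeR). Gm12969 and Gm6794 rose 32.8-fold and 30.2-fold (adjusted p = 0.00357 and 0.00492). The unprocessed pseudogene Gm28661 had 36.2 and 17.7 CPM with PBS and 0.339 and 0.124 CPM with DNase-treated ATEVs (115-fold lower, adjusted p = 0.00357), and Gm28437 and Gm29216 were 88.1-fold and 87.1-fold lower (adjusted p = 0.00475 and 0.0255). Of 1000 processed pseudogenes tested 75 rose and 52 fell, and of 35 unprocessed ones 0 rose and 8 fell, beside 2.16% and 0.855% of all genes.

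Pseudogenes that passed against PBS were also looked up between EV groups, where few genes of any kind passed (8 of 15197 against NTEVs and 101 against ATEVs). None of the 79 that rose and none of the 64 that fell was called against NTEVs or against ATEVs by edgeR. Over all 15197 genes, 1522 had an unadjusted p below 0.05 against NTEVs and 1724 against ATEVs. Among these pseudogenes there were 3 and 8 against NTEVs and 10 and 4 against ATEVs. DESeq2 called 2 and 0 of the pseudogenes against NTEVs and 0 and 1 against ATEVs. Their median log2 fold change was 2.59 for the rises and -4.22 for the falls against PBS, and 0.108 and 0.00412 against NTEVs. Gm15593 had 7.62 and 8.66 CPM with NTEVs, and Gm28661 had 0.332 and 0.299 CPM. Without PBS library 1 or 2 the pseudogene calls fell from 143 to 13 and 7, and without DNase-ATEV library 1 or 2 to 33 and 28. Gm15593, Gm28661 and Gm28437 passed in each of these 4 fits. Of the other kinds of gene, 22 of 388 antisense genes and 16 of 355 lincRNAs rose, with 1 and 0 falls. Over all genes tested 2.16% rose and 0.855% fell. The median log2 fold change of these other genes was 0.544, against -0.0247 for protein-coding genes. Whether the counting used strand is not stated, so reads of an antisense gene and of its partner cannot be told apart.

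Setting the DNase-ATEV libraries directly against the other EV groups shows which values differ among EVs. The 3 comparisons share libraries, and NTEVs differ from DNase-treated ATEVs in the T cell state, the EV dose (30 against 15 µg/mL) and the enzyme. Against NTEVs 8 genes passed (0.0526% of 15197), 7 higher (0.0461%) and 1 lower (0.00658%). At an unadjusted p below 0.05, 890 were higher (5.86%) and 632 lower (4.16%). Higher with DNase-treated ATEVs were Ltbp2 (57.1 ± 3.81 SD against 2.35 ± 0.0585 CPM, n = 2 each, adjusted p = 0.000495, edgeR), Lcn2 (log2 fold change 10.48, adjusted p = 0.0199), Pou2f2 (4.76, adjusted p = 0.0199), Vnn3 (4.46, adjusted p = 0.0199), Clca3b (5.28, adjusted p = 0.0262), Ehf (2.81, adjusted p = 0.0199) and the unnamed gene model D030025P21Rik (5.57, adjusted p = 0.0199). Lower was Zfpm1, the GATA cofactor FOG1, with 78.9 ± 0.518 CPM against 191 ± 12.2 CPM (SD, n = 2 each, adjusted p = 0.0272). D030025P21Rik and Zfpm1 were chosen after their values were seen. Of the 7 higher genes only Ltbp2 was also called higher than with untreated ATEVs. The ATEV means of Pou2f2, Vnn3 and Ehf were 14.9, 13.7 and 44.7 CPM. The call count was 1 without DNase-ATEV library 1, 5 without DNase-ATEV library 2, 1 without NTEV library 1 and 2 without NTEV library 2, and DESeq2 called 167. Among the 196 protein-coding genes that rose against PBS the median log2 fold change against NTEVs was 0.768, with 6 called and 125 at an unadjusted p below 0.05. Among the 64 that fell it was -0.275, with 0 called and 26 at an unadjusted p below 0.05. Directly against ATEVs the median of these falls was -0.173, with 1 called. None of the 46 type I interferon-stimulated genes was called against NTEVs by edgeR, with 26 higher at an unadjusted p below 0.05 and 14 called by DESeq2. There the log2 fold change was 1.75 for Oasl2 (adjusted p = 0.243) and 2.52 for Ifit1 (adjusted p = 0.268).

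Against untreated ATEVs 101 genes passed (0.665% of 15197), 13 higher (0.0855%) and 88 lower (0.579%) with DNase-treated ATEVs. At an unadjusted p below 0.05, 6.38% of genes were higher and 4.97% lower. The lower genes included 14 of 24 class I genes, 7 of 9 class II genes, 17 of 29 interferon gamma-induced genes and 6 of 46 type I interferon-stimulated genes. The filter on expression took in all groups. Members such as Cd74 and Ciita, at means of 0.0868 and 0 CPM with DNase-treated ATEVs, passed it through the ATEV libraries alone. The number of members tested therefore depended in part on the group in which they were high. H2-K1 had 2000.0 and 2577 CPM with ATEVs (log2 fold change -3.25, adjusted p = 0.0018, edgeR), B2m a mean of 1734 CPM (-3.16, adjusted p = 0.00556) and Psmb8 a mean of 255 CPM (-8.48, adjusted p = 0.000175). Cd74 had a mean of 442 ± 57.8 CPM with ATEVs against 0.0868 ± 0.0885 CPM with DNase-treated ATEVs (SD, n = 2 each, log2 fold change -12.28, adjusted p = 0.000172). Gbp3, which rose against PBS, was 4.67 lower on the log2 scale than with ATEVs (adjusted p = 0.00923). These genes all had far higher values in both ATEV libraries.

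Of the 32 members of the chemokine list edgeR called 0 against ATEVs, with 12 higher at an unadjusted p below 0.05 and 6 called by DESeq2. Lcn2 was 3.20 higher on the log2 scale (adjusted p = 0.0797, edgeR), Cxcl5 1.25 higher (adjusted p = 0.313), Nfkbiz 0.90 higher (adjusted p = 0.185) and Nos2 -0.09 (adjusted p = 0.99). Ltbp2 was among the 13 higher genes, at 24.4 ± 3.34 CPM with ATEVs (SD, n = 2, log2 fold change 1.23 ± 0.16 SE, adjusted p = 0.0259). Serpinb5 (maspin), an epithelial serpin, was also higher than with ATEVs (1.38, adjusted p = 0.0332), with 28.4 and 27.6 CPM in PBS, 15.7 and 13.5 CPM with DNase-treated ATEVs and a mean of 5.61 CPM with ATEVs. Homer2, a scaffold protein chosen after its value was seen, had 29.4 ± 6.15 CPM against 9.92 ± 0.636 CPM with ATEVs (SD, n = 2 each, adjusted p = 0.0123), and 57.0 CPM as its PBS mean. Of the genes lower than with ATEVs, 24 were called without DNase-ATEV library 1 and 37 without DNase-ATEV library 2, and 55 of the 55 calls were lower without ATEV library 1. No higher gene passed when the 2 groups were fitted alone or without ATEV library 1.

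The libraries held 34385326 to 52451398 counts, with 40345707 and 38260045 in the DNase-ATEV pair and both extremes in the PBS pair. Correlation of log2 CPM was 0.990 within PBS, 0.983 within the DNase-ATEV pair and 0.953 to 0.971 between the groups. Markers of epithelium summed to 10400 and 9170 CPM with PBS and 8600 and 9530 CPM with DNase-treated ATEVs, computed from library totals without scaling, and 8 of 8 were tested with 0 called. Of 8 fibroblast and endothelial markers 4 were tested and 0 called, and Dcn and Lum were at 0 in all 4 libraries. On the same scale their sum was 5.81 and 3.73 CPM with PBS and 6.62 and 11.7 CPM with DNase-treated ATEVs. Most of it was Col1a1, with 4.06 and 2.04 CPM with PBS and 5.85 and 10.2 CPM with DNase-treated ATEVs (adjusted p = 0.192, edgeR). Transcript GC content moved with the fold changes. With protein-coding genes split into 5 equal groups by GC content, from the lowest group to the highest the median log2 fold change ran from -0.216 to 0.207. Calls ran from 22 higher and 36 lower to 75 higher and 3 lower. The part of GC content in the results was not tested beyond the fit with an offset for it. That fit called 153 protein-coding genes instead of 260, 94 higher and 59 lower, and kept all 15 of the largest rises and 12 of the 15 largest falls.

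**Figure D5:**
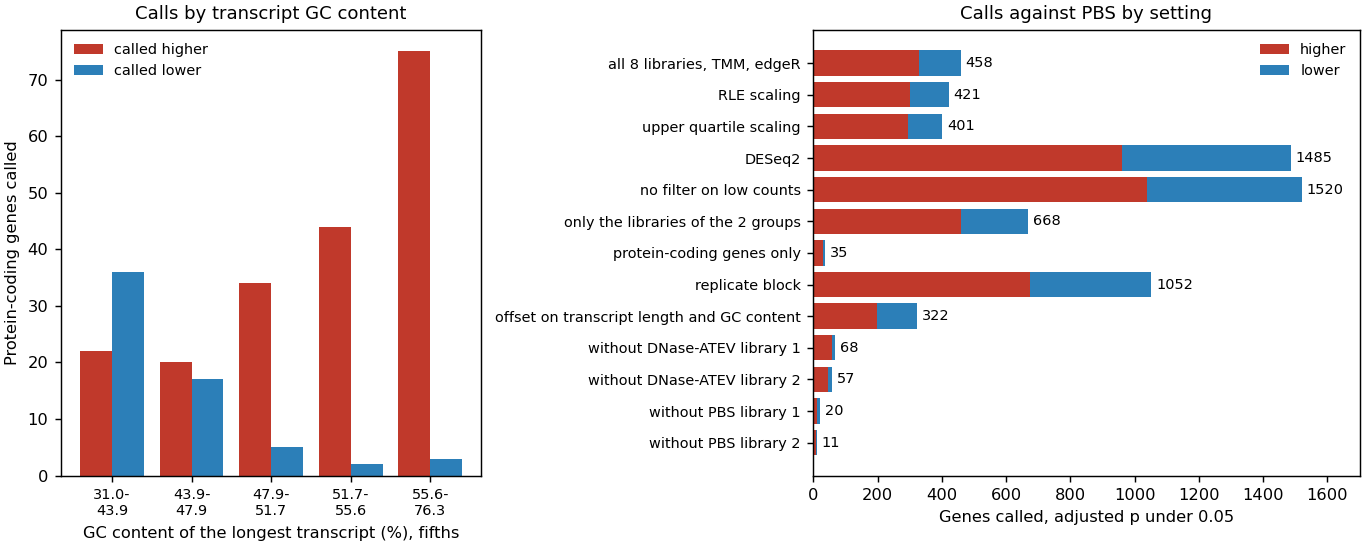
Left, protein-coding genes called higher or lower than PBS (bars) in 5 equal groups of transcript GC content, and right, the number of genes called against PBS (stacked bars, higher and lower) under each way of processing. Higher calls run from 22 in the lowest group to 75 in the highest, and the totals run from 11 without PBS library 2 to 1520 without the filter on low counts.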

How the data were processed

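Per the labels' protocols, libraries were stranded and made from mRNA. Tools named in the submitters' processing notes are bcl2fastq 2.19, TopHat2 2.0.11, TopHat, Cufflinks 2.1.1 and mm9, with no role or order. Which program counted reads, on which gene models and with what strand setting is not given in the sources used here. Deposited values were whole-number gene counts keyed by Ensembl identifiers. GENCODE M21 (GRCm38) served for names, classes, length and GC content only, and promoters came from RefSeq tables of GRCm38.p6, with no protein table used here.

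Counts were fitted in R 4.3.3 with edgeR 4.0.16 (filterByExpr, trimmed mean of M-values (TMM) scaling, quasi-likelihood test, a mean per group over all 8 libraries, 4 residual degrees of freedom, common coefficient of variation 0.226). P-values are two-sided, and adjusted by Benjamini-Hochberg over 15197 genes with a threshold of 0.05. With 2 libraries against 2, an exact permutation test of a single gene cannot go below p = 0.333. SE denotes the standard error of log2 fold changes. CPM are TMM-scaled. Counting intervals are exact at 95% and, as the reads carry no molecular identifiers, cover counting error only. The chi-square per gene between libraries was 39 with PBS and 100 with DNase-treated ATEVs, so none was a library deposited again.

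Alternatives were RLE and upper quartile scaling, DESeq2 1.42.0, no filter, the 2 groups alone, protein-coding genes alone, a replicate block, an offset for length and GC content, and each library left out. Named genes were the 15 largest protein-coding rises and falls that passed (mean log2 CPM of at least 1, groups apart, no predicted models), at most 4 genes of each list (those of lowest p), Lars2, Cd274, Nlrc5, Psmb8, Tap1, B2m, H2-D1 and H2-K1, and 3 pseudogenes each way. Genes outside this rule are said to be so, and some items that the rule or the labels give are not reported here. The members and the 33 lists were chosen with earlier results of these data known. Counts of DNase-treated ATEVs against PBS were also simulated (15197 genes, 200 changed, 100 per fold size). There edgeR found 43% of the 2-fold and 93% of the 4-fold changes. Of its calls 2.86% were unchanged genes, and 0 were called with none changed. Each simulated gene had the spread of the fitted trend, and all groups had the PBS mean except at the changed genes. Changed genes were drawn from those above 1 CPM with PBS. These rates therefore do not cover genes of lower PBS level or genes whose spread departs from the trend.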

Additional observations from a re-analysis of the deposited data

How the results depend on the processing

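Of 82 named genes or list members called against PBS, none changed sign under any alternative. With 1 library left out this was all but fixed, since the groups of every called gene did not overlap. Calls were kept by 79 under RLE scaling, 75 under upper quartile scaling, 82 under DESeq2, 82 with no filter, 79 with the 2 groups alone, 22 of 76 with protein-coding genes alone and 63 with the offset. They were kept by 23 and 22 without DNase-ATEV library 1 or 2, and by 8 and 7 without PBS library 1 or 2. Ltbp2 and Lars2 passed in all 12 alternatives. Against PBS the 458 calls became 1485 with DESeq2, 1520 with no filter, 35 with protein-coding genes alone and 11 to 68 with 1 library left out. The share called higher was 61.5% with the offset, 64.7% with DESeq2, 82.9% with protein-coding genes alone, and 55.0 to 85.3% with 1 library left out. The offset lowered the median of all genes by 0.115 (a shift of -0.115). The 260 protein-coding calls became 1108 with DESeq2, 1082 with no filter, 409 with the 2 groups alone, 35 alone, 153 with the offset and 4 to 30 with 1 library left out. The 143 pseudogene calls became 229 with DESeq2, 258 with no filter and 7 to 33 with 1 library left out. Against NTEVs the 8 calls became 167 with DESeq2, 180 with no filter, 2 with the 2 groups alone and 1 to 5 with 1 library left out. Against ATEVs the 101 calls became 350 with DESeq2, 343 with no filter, 47 with the 2 groups alone and 27 to 99 with 1 library left out. Where a setting has fewer libraries or genes, that is part of its construction, and otherwise the cause was not tested.

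Libraries of PBS and DNase-treated ATEVs share only a number: deviations from the group means correlated at -0.141 between same-numbered libraries, so the numbers were not used to pair them. Among the EV groups the same correlation was 0.485 with NTEVs and 0.552 with ATEVs, a hint from 2 pairs each. With the replicate block 1052 genes were called against PBS (64.0% higher), 765 of them protein-coding, 24 against NTEVs and 127 against ATEVs, and the immediate early and ERK feedback list had 16 calls instead of 0. All 82 named calls were kept. A block with the numbers crossed, chosen after seeing the data, gave 4378 calls, 3740 protein-coding and 355 pseudogenes. How detection depends on a gene's count at this depth was not tested.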
